A study of Mus musculus with 18 samples.

Results

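The genes of the mitochondrial genome are the 37 genes that the deposited table places on the chromosome named MT, out of 30452 genes in the table. They were chosen by that chromosome name alone and comprise 13 protein-coding genes, 2 ribosomal RNA genes and 22 transfer RNA genes. All 37 passed the filter on low values, an FPKM (sequenced fragments corrected for gene length and depth) of at least 1 in at least 3 libraries, which left 11936 genes for testing. RNA came from MC3T3-E1, an established mouse pre-osteoblast cell line, seeded at 20000 per well on membrane discs of 15 mm and harvested after 5 days. The study's title concerns piezoelectric barrier membranes for bone regeneration. The 6 groups, each of 3 libraries, were PLLA +US, PLLA -US, PLLA/ZnO +US, PLLA/ZnO -US, PLLA/ZnO@Col +US and PLLA/ZnO@Col -US, where PLLA is the polymer poly-L-lactic acid, ZnO is zinc oxide, Col is collagen, +US is ultrasound for 10 min every day and -US is no ultrasound. All groups shared the cell line, the PLLA base, the culture time and the selection of polyadenylated RNA. The labels name a single cell line and do not say whether replicates were separate cultures, so p-values measure the spread between these libraries, which may be technical.

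The mitochondrial genome encodes subunits of respiratory complexes I, III and IV and of the ATP synthase (complex V), together with the ribosomal and transfer RNAs that translate them. Both of its strands are transcribed into long precursors, and the transfer RNAs that lie between the other genes mark many of the places where the precursors are cut. All remaining subunits, and the proteins that copy, transcribe and translate this genome, are encoded in the nucleus. Most mitochondrial mRNAs carry short poly(A) tails, and in human cells the mRNA of the mt-Nd6 counterpart lacks one.

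Of the protein-coding genes, 12 lie on the plus strand of the table's coordinates (GRCm38) and mt-Nd6 lies on the minus strand. Both ribosomal RNA genes and 14 transfer RNA genes are on the plus strand, and 8 transfer RNA genes are on the minus strand. Every one of these positions and strands was the same in the GENCODE M21 annotation of GRCm38. The genes are packed so closely that some share bases. The last 43 bases of mt-Atp8 (MT:7766-7969, a subunit of the ATP synthase) are also the first of mt-Atp6 (MT:7927-8607, the subunit of its proton channel), and reads that fall there cannot be given to 1 gene by position. These 43 bases are in capitals in the coding sequence of mt-Atp8, shown because its level per length was among the highest of the genome while part of it is shared.
mt-Atp8: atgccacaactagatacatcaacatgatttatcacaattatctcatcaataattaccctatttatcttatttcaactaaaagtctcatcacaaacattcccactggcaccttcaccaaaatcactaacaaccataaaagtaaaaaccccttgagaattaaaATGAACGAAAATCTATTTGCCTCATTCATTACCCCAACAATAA
On opposite strands, mt-Nd5 and mt-Nd6 share 14 bases, and mt-Nd4l and mt-Nd4 share 7 bases on the same strand. Whether the counting used strand is not given in the sources used here.

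Chromosome 1 carries annotated near-identical copies of 7 of the 13 protein-coding genes, listed as unprocessed pseudogenes, and these limit what the counts can say. Only annotated genes were compared, and the bases between them were not. All 7 copies lie on the minus strand between Gm28439, which starts at position 24611535, and Gm29216, which ends at position 24616197. The copies of mt-Nd4l (Gm10222), mt-Co3 (Gm28437), mt-Atp6 (Gm10925) and mt-Co2 (Gm28661) had 0 substitutions over 294, 783, 678 and 681 bases. Gm28439 matched the first 876 bases of mt-Nd4 with 0 substitutions, which is 63.6% of that gene, and Gm29216 matched the last 492 bases of mt-Co1 with 6 substitutions (98.8% identity). The copy of mt-Nd3, Gm28438, differed at 1 of 345 bases, the substitution T3C, counted from 1 at the 5′ end of the coding strand. Both sequences are from the GRCm38 genome released with GENCODE M21, shown for the first 120 bases of each to make plain how little separates them, with the base that differs in capitals.
mt-Nd3 (MT:9459-9578, plus strand): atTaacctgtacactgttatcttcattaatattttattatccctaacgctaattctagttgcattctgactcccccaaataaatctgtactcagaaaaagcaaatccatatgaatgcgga
Gm28438 (chr1:24613000-24613119, minus strand): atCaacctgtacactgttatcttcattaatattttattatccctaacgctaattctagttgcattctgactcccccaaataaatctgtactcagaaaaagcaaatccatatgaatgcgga

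The counts of these copies followed those of their mitochondrial partners almost exactly. The count of the copy divided by the count of the mitochondrial gene lay between 0.988 and 1.01 over 18 libraries for mt-Nd3, between 0.994 and 1 for mt-Co2, between 0.996 and 1.01 for mt-Co3 and was at most 1.03 for mt-Nd4l. For mt-Atp6 it lay between 1.08 and 1.11. The ratio was lower where the copy covers only part of the gene, between 0.417 and 0.538 for mt-Nd4 and between 0.0566 and 0.0901 for mt-Co1. The 7 copies together held 0.475% to 1.17% of all counts. The table does not say whether a shared read was counted once for each gene or divided between them. The levels of these 7 mitochondrial genes are therefore uncertain in size, and the copies are not counted among the 37. Whether the bases between the copies also match mitochondrial genes was not tested. The levels of mt-Atp8, which lies between mt-Co2 and mt-Atp6, and of transfer RNA genes may thus be uncertain too.

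**Figure D1:**
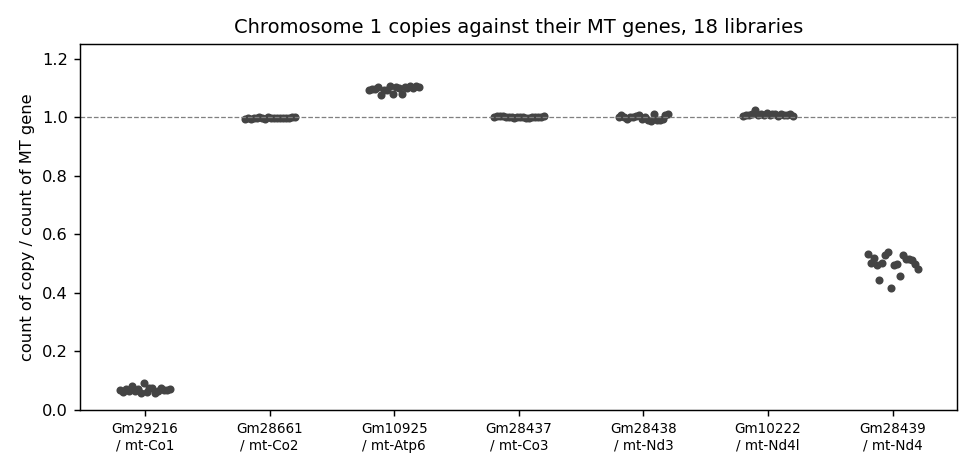
Count of each chromosome 1 copy divided by the count of its mitochondrial gene (y axis, a ratio, dashed line at 1), with 1 point for each of the 18 libraries and the pairs along the x axis in genome order. The ratios for mt-Co2, mt-Co3, mt-Nd3 and mt-Nd4l lie on or next to the dashed line in every library, mt-Atp6 lies between 1.08 and 1.11, and the partial copies of mt-Co1 and mt-Nd4 lie below it.

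Depth was 48307580 to 78039543 counts per library, so counting error was small, and the exact 95% binomial interval of the mitochondrial share was at most 0.0109 percentage points wide (counting error only). Of 10 listed osteoblast markers 6 reached 1 FPKM in some library, while Sp7, Alpl, Bglap and Ibsp stayed under 1 FPKM in all. Markers of endothelial (4 in the table), epithelial (5) and adipocyte (1) cells stayed under 1 FPKM in every library. Macrophage markers reached a summed 6.50 to 36.1 FPKM, with Ptprc and Adgre1 under 1 FPKM in all libraries. A single chondrocyte marker of the 4 in the table reached 1 FPKM, and fibroblast surface markers summed to 402 to 1244 FPKM.

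Some libraries stood apart from their groups in a measure that no mitochondrial gene enters. The summed level of the Y-linked genes Ddx3y, Eif2s3y, Kdm5d and Uty, given as a percentage of the median of the 3 PLLA -US libraries, was between 56.2% and 106% in 11 libraries. On PLLA/ZnO@Col it was 2.15%, 28.7% and 32.3% in the +US replicates 1, 2 and 3, and 1.16% and 1.71% in the -US replicates 1 and 3. It was 26.1% in replicate 3 of PLLA +US and 13.2% in replicate 3 of PLLA/ZnO +US. These 7 libraries fall unevenly over the groups, with all 3 of PLLA/ZnO@Col +US among them and none of PLLA -US or PLLA/ZnO -US. Shares, medians and calls are therefore also given without the 3 libraries under 10%, or without all 7, where a comparison still has libraries on both sides, a choice made after the data were seen. Without all 7, no value that includes PLLA/ZnO@Col +US can be had.

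The 37 genes held between 1.57% and 4.54% of all counts, with a median of 2.57% over the 18 libraries. On PLLA the share was 2.63%, 4.23% and 1.87% in the +US libraries, against 3.72%, 2.31% and 3.72% in the -US libraries. On PLLA/ZnO it was 3.35%, 3.37% and 1.57% with ultrasound, against 2.50%, 3.43% and 2.64% without. On PLLA/ZnO@Col it was 2.27%, 1.58% and 1.77% with ultrasound, against 2.16%, 4.54% and 1.83% without. The groups overlapped on every membrane, and the range within PLLA/ZnO@Col -US nearly spanned the range of the whole series. Protein-coding genes supplied almost all of it, 1.55% to 4.46% of counts. Ribosomal RNA made up 0.721% to 1.58%, and transfer RNA genes 0.267% to 0.452%, of the mitochondrial counts in these libraries of polyadenylated RNA.

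**Figure D2:**
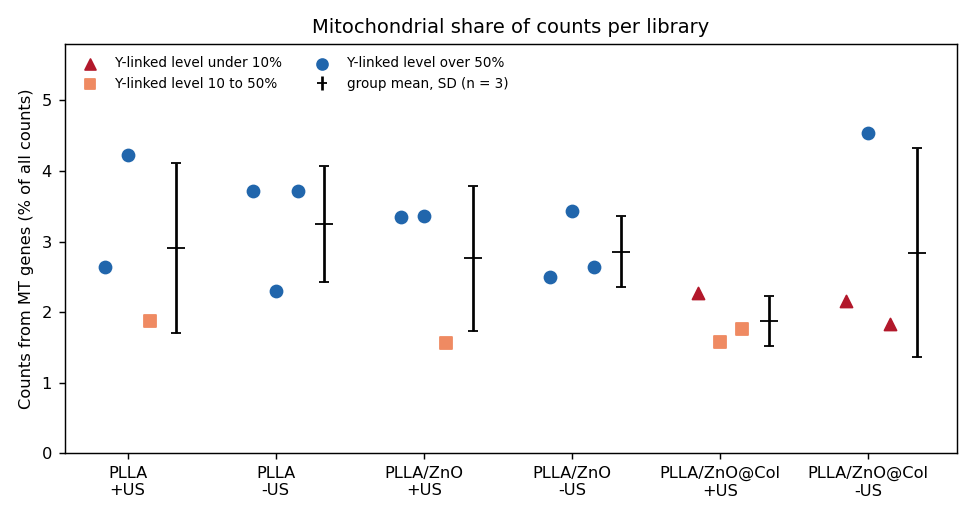
Share of all counts that fell on the 37 mitochondrial genes (y axis, percent) in each library, by group along the x axis, with +US left of -US on each membrane; black bars are the group mean and SD (n = 3), and colour and shape give the Y-linked level. The groups overlap, and the 7 libraries with a Y-linked level under 50% lie between 1.57% and 2.27%, below the other 11.

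No comparison of the mitochondrial share passed a test. Across the 3 membranes it averaged 2.52% ± 0.946 with ultrasound and 2.98% ± 0.904 without (SD, n = 9 each), a difference of -0.47 percentage points (two-sided exact permutation test within membranes, p = 0.3095, Benjamini-Hochberg adjusted p = 1 over the 10 comparisons of the share). With 1 library left out it ranged from -0.69 points (without PLLA +US replicate 2) to -0.18 points (without PLLA/ZnO@Col -US replicate 2), and it also moved to -0.27 and -0.29 points without replicate 3 of PLLA/ZnO +US and of PLLA +US. Of the 7 comparisons between groups, the largest difference was on the collagen membrane, 1.87% ± 0.355 with ultrasound and 2.84% ± 1.48 without (SD, n = 3 each), with a difference of -0.97 points (exact permutation p = 0.4). Of the collagen -US libraries, replicate 2 alone stood above all 3 +US libraries, and without it the difference was -0.12 points. Without the 3 libraries under 10% of the Y-linked level, which leaves replicate 2 alone, it was -2.87 points (smallest p that 2 libraries against 1 allow in this exact permutation test, 0.333), and over the 3 membranes the difference was then -1.1 points (exact permutation p = 0.126, adjusted p = 0.9). Collagen compared with PLLA/ZnO, both with ultrasound, gave -0.89 points (1.87% ± 0.355 against 2.76% ± 1.03, exact permutation p = 0.4). With 1 library left out it ranged from -1.49 points (without PLLA/ZnO +US replicate 3) to -0.59 points (without PLLA/ZnO +US replicate 2), with -0.60 points without PLLA/ZnO +US replicate 1. Without the libraries under 10% of the Y-linked level it was -1.09 points (exact permutation p = 0.4). With 3 libraries against 3 the smallest p that this test allows is 0.1, and each of these had an adjusted p of 1.

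The other differences between groups were smaller. Like the -0.97 and -0.89 points above, each lay below the larger SD of its pair. Ultrasound on PLLA gave 2.91% ± 1.20 and no ultrasound 3.25% ± 0.816, a difference of -0.34 points (exact permutation p = 0.9). Ultrasound on PLLA/ZnO gave 2.76% ± 1.03 and no ultrasound 2.86% ± 0.502, a difference of -0.095 points (exact permutation p = 0.8). Both differences changed sign when 1 library was left out, to 0.18 points without PLLA +US replicate 3 and to 0.50 points without PLLA/ZnO +US replicate 3, which are the libraries of those comparisons with a Y-linked level under 50%. Without PLLA/ZnO -US replicate 2 the PLLA/ZnO difference was 0.19 points. Zinc oxide compared with plain PLLA gave -0.15 points with ultrasound (2.76% ± 1.03 against 2.91% ± 1.20, exact permutation p = 0.9) and -0.39 points without (2.86% ± 0.502 against 3.25% ± 0.816, exact permutation p = 0.6). The difference without ultrasound ranged from -0.86 points (without PLLA -US replicate 2) to -0.16 points (without PLLA -US replicate 1 or 3) with 1 library left out, and it moved to -0.68 and -0.21 points without PLLA/ZnO -US replicates 2 and 1. The difference with ultrasound was 0.51 points without PLLA +US replicate 2 and 0.45 points without PLLA/ZnO +US replicate 3. Collagen compared with PLLA/ZnO without ultrasound gave -0.015 points (2.84% ± 1.48 against 2.86% ± 0.502, exact permutation p = 1). Its sign rested on single libraries, since it was 0.33, 0.49 and 0.27 points without PLLA/ZnO@Col -US replicate 1, without PLLA/ZnO@Col -US replicate 3 and without PLLA/ZnO -US replicate 2, and -0.86 points without PLLA/ZnO@Col -US replicate 2.

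Among the protein-coding genes, levels per length (FPKM) spanned about an order of magnitude, and mt-Co1, the catalytic subunit of complex IV, was the highest of the 13 in 15 of 18 libraries. On PLLA it was at 5525, 8336 and 3272 FPKM with ultrasound, against 7464, 5285 and 7553 FPKM without. On PLLA/ZnO it was at 7014, 6985 and 2377 FPKM with ultrasound, against 5215, 6687 and 5723 FPKM without. On PLLA/ZnO@Col it was at 3899, 2818 and 3075 FPKM with ultrasound, against 3814, 8351 and 3151 FPKM without. Its lowest and its highest value over all libraries, 2377 and 8351 FPKM, both lay in groups whose other libraries were far from them. The mt-Co1 counts were 1.01% ± 0.469 of all counts in PLLA +US, 1.22% ± 0.249 in PLLA -US, 0.968% ± 0.475 in PLLA/ZnO +US, 1.05% ± 0.135 in PLLA/ZnO -US, and on PLLA/ZnO@Col 0.582% ± 0.0927 with ultrasound and 0.914% ± 0.509 without (SD, n = 3 each). The other complex IV subunits, mt-Co2 and mt-Co3, averaged 2435 and 1596 FPKM over the 18 libraries, and neither had a group mean above 0.228% of counts.

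Next in order of mean FPKM came mt-Atp8 at 3933, the highest of the 13 in the remaining 3 libraries, and mt-Cytb at 2482, while mt-Atp6 at 2406 came just after mt-Co2. The gene mt-Cytb encodes cytochrome b, the only complex III subunit made in mitochondria. Its counts were 0.361% ± 0.175 of all counts in PLLA +US against 0.397% ± 0.133 in PLLA -US, 0.314% ± 0.158 in PLLA/ZnO +US against 0.354% ± 0.0744 in PLLA/ZnO -US, and 0.200% ± 0.0365 in PLLA/ZnO@Col +US against 0.343% ± 0.212 in PLLA/ZnO@Col -US (SD, n = 3 each). The +US mean was the lower of each pair, by less than the larger SD of the pair.

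The 7 complex I subunits were lower per length on the whole. Their mean levels over the 18 libraries ran in the order mt-Nd1 (1872 FPKM), mt-Nd2 (1417), mt-Nd4l (1312), mt-Nd4 (965), mt-Nd5 (866), mt-Nd6 (482) and mt-Nd3 (421). Neighbours in this order overlapped in range: mt-Nd4, for example, ran between 418 and 1838 FPKM and mt-Nd5 between 483 and 1559 FPKM. The lowest of the 13 was mt-Nd3 in 13 libraries and mt-Nd6, the gene on the opposite strand, in the other 5. As shares of all counts, mt-Nd1 had group means of 0.153% to 0.227%, mt-Nd5 of 0.132% to 0.221%, mt-Nd2 of 0.144% to 0.208%, mt-Nd4 of 0.0960% to 0.183%, mt-Nd4l of 0.0298% to 0.0589%, mt-Nd6 of 0.0207% to 0.0361% and mt-Nd3 of 0.0141% to 0.0202%. PLLA/ZnO@Col +US had the lowest group mean for each of these except mt-Nd2, lowest in PLLA/ZnO -US, and mt-Nd3, lowest in PLLA +US.

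**Figure D3:**
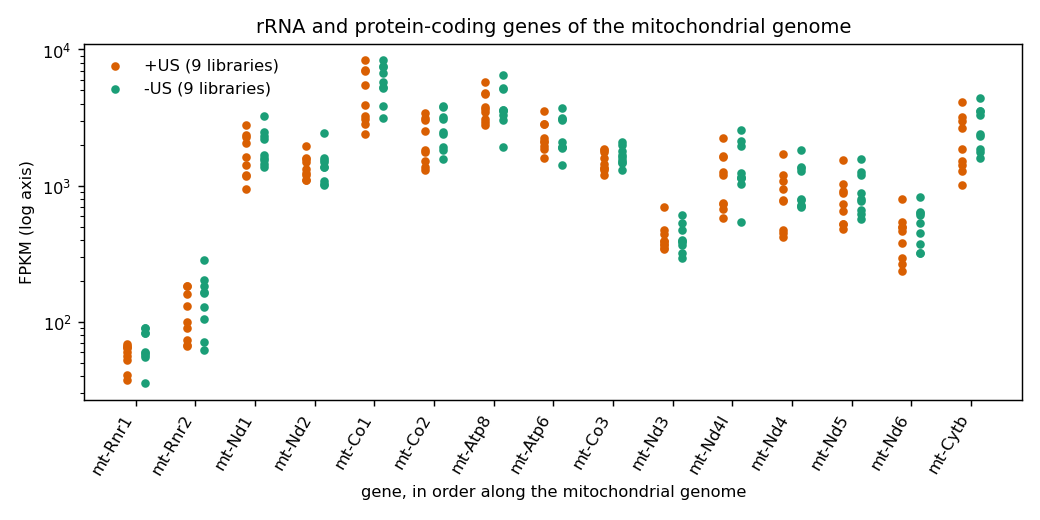
FPKM (y axis, log scale) of the 2 ribosomal RNA and 13 protein-coding genes in the 18 libraries, with genes along the x axis in genome order, +US libraries in orange on the left of each gene and -US libraries in green on the right. The orange and green points overlap for each gene, with mt-Co1 highest on average (5364 FPKM) and mt-Rnr1 lowest (62.4 FPKM).

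The ribosomal RNA genes were the lowest of the long genes in these polyadenylated libraries, mt-Rnr2 (16S) at a mean of 134 FPKM and mt-Rnr1 (12S) at 62.4 FPKM. On PLLA, mt-Rnr1 was at 52.7, 59.5 and 66.3 FPKM with ultrasound, against 60.3, 56.8 and 58.9 FPKM without. On PLLA/ZnO it was at 63.7, 68.4 and 65.6 FPKM with ultrasound, against 90.1, 89.9 and 83.0 FPKM without. On PLLA/ZnO@Col it was at 56.1, 37.5 and 41.0 FPKM with ultrasound, against 35.3, 82.7 and 55.2 FPKM without. The 3 PLLA/ZnO -US libraries lay above the 3 of PLLA -US and above the 3 of PLLA/ZnO +US. All 3 of PLLA/ZnO@Col +US lay below those of PLLA/ZnO +US. How many of all genes separate the same groups is not given here, so these separations cannot be called particular to mt-Rnr1. The libraries were made from polyadenylated RNA, so these levels are not measures of the amount of mitochondrial ribosomes.

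The transfer RNA genes are 22 in number and were counted at mean levels of 3.72 (mt-Tf) to 1311 (mt-Tl1) reads per library. The sequences at both ends of this range are shown because genes of nearly the same length and on the same strand differed so widely.
mt-Tl1 (MT:2676-2750, plus strand, transfer RNA for leucine): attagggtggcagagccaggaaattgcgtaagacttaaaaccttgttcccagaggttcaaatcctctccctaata
mt-Tf (MT:1-68, plus strand, transfer RNA for phenylalanine): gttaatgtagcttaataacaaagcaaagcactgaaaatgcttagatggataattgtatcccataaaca
The transfer RNA mt-Tl1 follows mt-Rnr2 and precedes mt-Nd1 without a gap, and mt-Tf opens the genome's numbering. In counts, mt-Tl1 had 590 to 3079 per library and mt-Tf had 1 to 7, so changes of mt-Tf were hardly detectable at this depth. The other 2 with the highest mean counts were mt-Ts1 and mt-Te, both on the minus strand, and the other 2 with the lowest were mt-Tv and mt-Td, both on the plus strand. Reads over these short genes may belong to mature transfer RNA or to longer RNAs that contain them, which these counts do not separate.

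In edgeR's quasi-likelihood test none of the 37 mitochondrial genes passed an adjusted p of 0.05 (Benjamini-Hochberg over all 11936 genes tested) in any of the 7 comparisons between groups. Over all genes 0 of 11936 (0%) passed in each of them too. DESeq2 and limma also called 0 of the 37 in each comparison; limma on log2(FPKM + 1) called 0 of all genes, and DESeq2 called 0 for ultrasound on PLLA, 5 on PLLA/ZnO and 3 on PLLA/ZnO@Col, 2 for zinc oxide with ultrasound and 1 without, and 47 for collagen with ultrasound and 407 without. At an unadjusted p under 0.05 the edgeR test had 1, 0 and 0 of the 37 for ultrasound on PLLA, PLLA/ZnO and PLLA/ZnO@Col, against 52 (0.436%), 387 (3.24%) and 976 (8.18%) of all genes. It had 2 for zinc oxide with ultrasound and 1 without, against 151 (1.27%) and 142 (1.19%) of all genes. For collagen it had 1 with ultrasound and 2 without, against 1125 (9.43%) and 1544 (12.9%) of all genes. The differences in the ultrasound effect between membranes, as interaction terms of the same model, also called 0 of the 37, and 0 of 11936 (0%) of all genes. The median difference in ultrasound effect of the 13 protein-coding genes was 0.14 for PLLA/ZnO minus PLLA (3 of 13 below 0, beside 53.2% of all genes), -0.57 for PLLA/ZnO@Col minus PLLA/ZnO (13 of 13, beside 57.2%) and -0.48 for PLLA/ZnO@Col minus PLLA (13 of 13, beside 58.1%). At an unadjusted p under 0.05 these had 1, 1 and 0 of the 37, against 46 (0.385%), 263 (2.2%) and 146 (1.22%) of all genes.

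The medians of these differences were 0.14, -1.36 and -1.27 without the 3 libraries under 10% of the Y-linked level, with PLLA/ZnO@Col -US replicate 2 as the only library of its group. For PLLA/ZnO@Col minus PLLA/ZnO that fit called 13 of all genes (0.109%), 8 higher (0.067%) and 5 lower (0.0419%), and the 1 mitochondrial gene among them was mt-Ty, a transfer RNA gene (-2.04, SE 0.32, adjusted p = 0.038 by edgeR). For PLLA/ZnO@Col minus PLLA it called 13 of all genes (0.109%), 6 higher (0.0503%) and 7 lower (0.0586%), and 0 of the 37. For PLLA/ZnO minus PLLA it called 0, and without all 7 libraries under 50% that median was 0.17, again with 0 genes called.

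With ultrasound on the collagen membrane the 13 protein-coding genes had a median log2 fold change of -0.60, against -0.03 for all genes tested. Their fold changes ran between -0.85 and -0.24, and all 13 were below 0, as were 52.9% of all genes. The 13 share libraries and overlap or follow each other on common precursors, so they are not 13 independent observations. Of the complex I genes, mt-Nd4 was at 951, 418 and 450 FPKM in PLLA/ZnO@Col +US, against 784, 1838 and 711 FPKM in PLLA/ZnO@Col -US, a log2 fold change of -0.85 (SE 0.49, adjusted p = 0.525 by edgeR). The minus-strand gene mt-Nd6 was at 537, 238 and 268 FPKM with ultrasound, against 451, 825 and 528 FPKM without (-0.77, SE 0.40, adjusted p = 0.525). For mt-Cytb the values were 1850, 1282 and 1415 FPKM with ultrasound, against 1760, 4429 and 1583 FPKM without (-0.75, SE 0.47, adjusted p = 0.527). The groups overlapped in each of the 3 genes, and replicate 2 without ultrasound was the highest library in each.

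The other protein-coding genes and the ribosomal RNA genes also had fold changes below 0 with ultrasound on the collagen membrane, and none passed the test. Complex IV genes had -0.62 (mt-Co1, SE 0.43), -0.60 (mt-Co2, SE 0.38) and -0.27 (mt-Co3, SE 0.20), and the ATP synthase genes had -0.35 (mt-Atp6, SE 0.32) and -0.24 (mt-Atp8, SE 0.35). The other complex I genes lay between -0.68 (mt-Nd4l) and -0.27 (mt-Nd3). Ribosomal RNAs were at -0.76 for mt-Rnr2 (SE 0.50) and -0.35 for mt-Rnr1 (SE 0.21). Of the 37 genes 33 were below 0, and the 4 above 0 were the transfer RNA genes mt-Tw (0.26), mt-Tk (0.14), mt-Ta (0.04) and mt-Tn (0.01). The size of this shift rested on PLLA/ZnO@Col -US replicate 2, the library with the highest mitochondrial share of the series. Without that library the median of the 13 was -0.14, and mt-Atp8 and mt-Atp6 had fold changes of 0.31 and 0.08. Without the 3 libraries at under 10% of the Y-linked level, replicate 2 is the only collagen -US library, assumed to vary like the other groups, and the median was -1.46. That fit called 5 of the 37, all lower with ultrasound, against 111 of all genes (0.93%), 70 higher (0.586%) and 41 lower (0.343%). They were mt-Rnr1 (-1.03, SE 0.14, adjusted p = 0.00771), mt-Ty (-1.84), mt-Tc (-1.25), mt-Tp (-1.40) and mt-Ti (-2.33), and 0 of the 13 protein-coding genes were called. Without PLLA/ZnO@Col +US replicate 1, the test called 38 of the 11936 genes tested and 0 of the 37.

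On PLLA and PLLA/ZnO the protein-coding genes stayed close to 0. Ultrasound on PLLA gave a median of -0.11 (between -0.28 and 0.09, with 11 of 13 below 0, beside 49.5% of all genes), and ultrasound on PLLA/ZnO gave 0.03 (between -0.19 and 0.29, with 6 of 13 below 0, beside 53.7%). Averaged over the membranes the median was -0.20, against 0.01 for all genes, with 12 of 13 below 0 beside 48.7% of all genes and 0 of the 37 called. The count of all genes called was also 0 (0%), with 1444 (12.1%) at an unadjusted p under 0.05 and 0 of the 37 among those. Leaving out the 3 libraries under 10% of the Y-linked level, the average had a median of -0.52 and the test called 1044 of all genes (8.75%), 737 higher (6.17%) and 307 lower (2.57%). The 4 mitochondrial genes among them were all lower with ultrasound, mt-Rnr1 (-0.48, SE 0.07, adjusted p = 0.0155 by edgeR), mt-Ti (-1.0), mt-Ty (-0.59) and mt-Tp (-0.52), and 0 of the 13 protein-coding genes were called. In that fit PLLA/ZnO@Col -US replicate 2 again stands for its group alone. Every library under 50% of the Y-linked level that this fit keeps is a +US library. Its calls therefore do not tell ultrasound apart from the Y-linked level. Without PLLA +US replicate 3 the PLLA median was 0.13, and without PLLA/ZnO +US replicate 3 the PLLA/ZnO median was 0.28. Without all libraries under 50% of the Y-linked level the medians were 0.12 on PLLA and 0.27 on PLLA/ZnO, and these cannot be had for the collagen membrane, where no +US library is left.

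**Figure D4:**
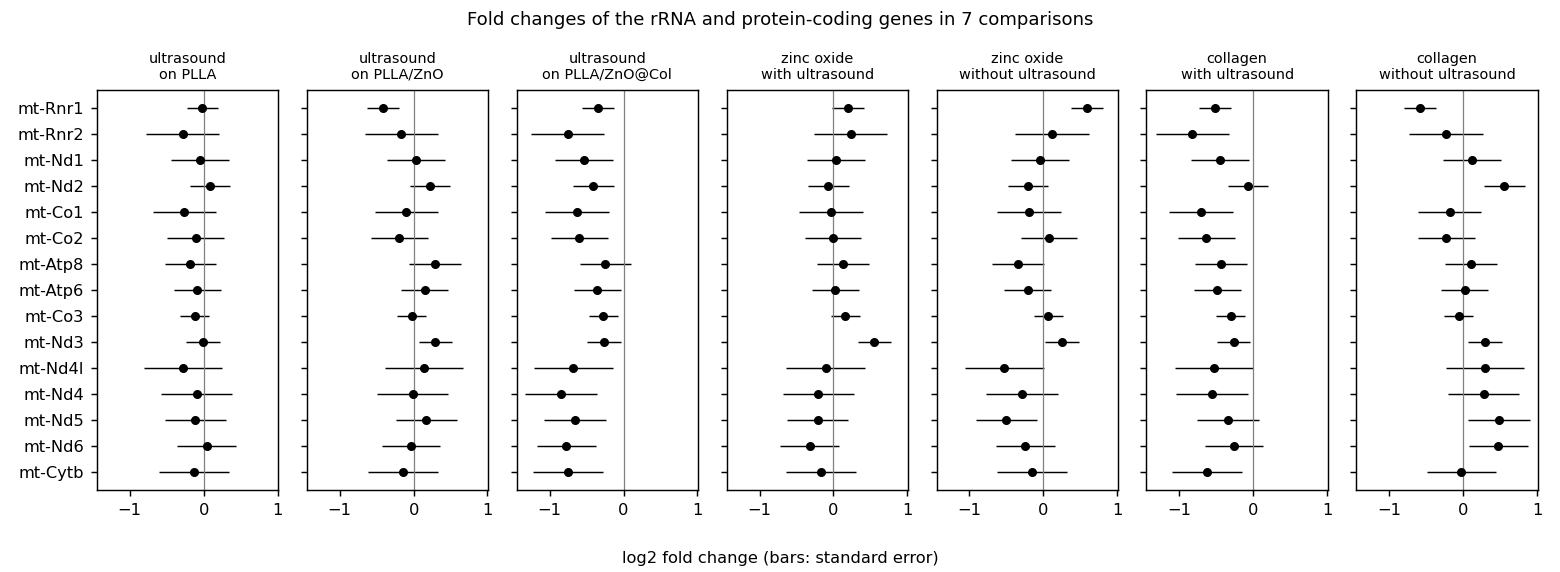
Log2 fold changes (x axis) with standard errors of the ribosomal RNA and protein-coding genes, in genome order down the page, in the 7 comparisons, each with +US over -US, PLLA/ZnO over PLLA, or PLLA/ZnO@Col over PLLA/ZnO. The points for ultrasound on PLLA/ZnO@Col and for collagen with ultrasound all lie left of 0 (medians of the 13 protein-coding genes -0.60 and -0.45), and none passed an adjusted p of 0.05.

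Zinc oxide and collagen also gave small shifts with wide errors. For zinc oxide the median of the 13 was -0.03 with ultrasound (8 of 13 below 0, beside 53.8% of all genes) and -0.21 without (10 of 13, beside 51.1%). With ultrasound it was 0.33 without PLLA +US replicate 2 and 0.24 without PLLA/ZnO +US replicate 3. For collagen it was -0.45 with ultrasound (13 of 13 and all 37 below 0, beside 49.6%) and 0.12 without (4 of 13, beside 45.0%). With ultrasound it was -0.75 without the 3 libraries under 10% of the Y-linked level, of which 1 is in these groups (PLLA/ZnO@Col +US replicate 1). The comparisons of collagen and of ultrasound on the collagen membrane share libraries, so their values are not separate observations. The genes with an unadjusted p under 0.05 were mostly ribosomal or transfer RNAs, and mt-Rnr1 was among them in 3 comparisons. It had a log2 fold change of 0.59 for zinc oxide without ultrasound (SE 0.21, adjusted p = 1 by edgeR), -0.58 for collagen without ultrasound (SE 0.21, adjusted p = 0.260 by edgeR) and -0.52 for collagen with ultrasound (SE 0.21, adjusted p = 0.472 by edgeR). The first 2 of these share the PLLA/ZnO -US libraries. Without the libraries under 10% of the Y-linked level the collagen fold changes of mt-Rnr1 were -0.75 with ultrasound (adjusted p = 0.0896 by edgeR) and -0.11 without (adjusted p = 0.702 by edgeR). Among protein-coding genes, mt-Nd3 was at 390, 438 and 691 FPKM in PLLA/ZnO +US, against 341, 371 and 351 FPKM in PLLA +US (0.56, SE 0.23, adjusted p = 1 by edgeR), and these groups did not overlap. Without PLLA/ZnO +US replicate 3, whose Y-linked level was 13.2%, this fold change was 0.26. The share of all genes that separate these 2 groups is not given here.

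The number of genes called for collagen without ultrasound depended on which libraries were kept. Without PLLA/ZnO@Col -US replicate 2 the median of the 13 was -0.33, and mt-Rnr1 was called lower (-0.89, SE 0.20, adjusted p = 0.0177 by edgeR), with 1039 of all genes called (8.7%), 657 higher (5.5%) and 382 lower (3.2%). The collagen -US libraries left in that fit, replicates 1 and 3, had Y-linked levels of 1.16% and 1.71%. The PLLA/ZnO -US libraries had 64.6% to 98.9%, so these calls do not tell collagen apart from the Y-linked level. Without PLLA/ZnO@Col -US replicate 3 the test called 18 of the 11936 genes tested and 0 of the 37. Without the 3 libraries under 10% of the Y-linked level the median was 0.74, and mt-Ty (1.48) and mt-Tc (1.11) were called higher, with 166 of all genes called (1.39%), 67 higher (0.561%) and 99 lower (0.829%). Without all 7 libraries under 50% the median was 0.75 and 6 of the 37 were called higher, mt-Ty, mt-Tc, mt-Te, mt-Ti, mt-Tl1 and mt-Nd2, with 1932 of all genes called (16.2%), 858 higher (7.19%) and 1074 lower (9.0%). In these last fits replicate 2 is the only collagen -US library, and its share of 4.54% lay above the 2.50% to 3.43% of the PLLA/ZnO -US libraries.

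Within the mitochondrial mRNA, the balance between complexes shifted by a few percentage points at most. Complex I genes made up 30.6% ± 3.47 of the protein-coding mitochondrial counts with ultrasound and 29.3% ± 3.56 without, complex III 11.4% ± 1.49 and 12.2% ± 0.918, and complex IV 46.4% ± 3.30 and 48.7% ± 3.46 (SD, n = 9 each). The ATP synthase genes made up 11.6% ± 2.30 with ultrasound and 9.81% ± 0.558 without, a difference of 1.79 points (two-sided exact permutation test within membranes, p = 0.04925, adjusted p = 0.197 over the 4 complexes). The other 3 had permutation p-values of 0.3332, 0.161 and 0.12. Without PLLA/ZnO@Col +US replicate 1 the difference for the ATP synthase was 2.18 points with an adjusted p of 0.036 (exact permutation test), and without PLLA/ZnO +US replicate 3 it was 1.11 points with an adjusted p of 0.357 (exact permutation test). Without the 3 libraries under 10% of the Y-linked level it was 2.07 points with an adjusted p of 0.117 (exact permutation test).

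The 4 libraries with the highest ATP synthase share were all +US libraries. They were replicates 2 and 3 on PLLA/ZnO@Col and replicate 3 on each of the other membranes, the libraries with a Y-linked level between 10% and 50%. They held 12.5% to 16.2% of protein-coding mitochondrial counts in mt-Atp6 and mt-Atp8, and the other 14 libraries held 8.55% to 10.5%. Of the 13 genes, mt-Atp6 was the 1 whose share separated these 4 from the other 14, at 8.09% to 10.7% against 6.09% to 7.11%. It is part of the sum in which these 4 ranked highest, so this is not a separate observation. In log2 CPM, a different measure, 1.47% of all genes tested were higher in these 4 than in all other 14 libraries. By that measure 12.2% were lower, and of the 37 mitochondrial genes 0 were higher and 8 were lower. The copy Gm10925 shares its reads, as described above. The other 5 +US libraries lay within the range of the -US libraries, and whether the Y-linked level and the ATP synthase share have a common source was not tested.

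The mitochondrial share was split by the Y-linked level without overlap, which none of the 7 comparisons between groups showed. The 7 libraries under 50% of the Y-linked level held 1.57% to 2.27% of counts in mitochondrial genes, and the other 11 held 2.31% to 4.54%. These are ranges of libraries that were set apart after the data were seen, and no test was made. The share of mt-Nd2 among protein-coding mitochondrial counts was 7.83% to 8.97% in the 7 and 5.03% to 6.62% in the 11. For mt-Nd3 it was 0.735% to 1.78% in the 7 and 0.359% to 0.640% in the 11, and for mt-Co1 27.2% to 32.5% in the 7 and 33.5% to 40.9% in the 11. The shares of the other 10 protein-coding genes overlapped between the 2 sets. A division of this kind was frequent among all genes: in log2 CPM, 4.79% of those tested were higher in each of the 7 than in any of the 11, and 8.19% were lower. Of the 37 mitochondrial genes, mt-Co1 alone was lower without overlap by that measure, and 0 were higher. Per length, mt-Nd3 was highest in PLLA/ZnO +US replicate 3 (691 FPKM) and in PLLA/ZnO@Col -US replicate 3 (613 FPKM), where mt-Co1 was at 2377 and 3151 FPKM.

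Some other measures were divided in the same way and others were not. The nuclear-retained RNA Malat1 was at 31.2 to 141 CPM (counts scaled to a common library size) in the 7 libraries and 167 to 411 in the 11, and Neat1, the scaffold RNA of paraspeckles, was at 53.5 to 124 in the 7 and 152 to 321 in the 11. Of the osteoblast markers, Spp1 (osteopontin) was at 637 to 1026 FPKM in the 7 and 1446 to 3609 FPKM in the 11. Col1a1, a chain of type I collagen, overlapped at 906 to 1107 FPKM in the 7 and 500.4 to 1165 FPKM in the 11, and Sparc at 638 to 730 FPKM in the 7 and 345 to 669 FPKM in the 11. Summed macrophage markers overlapped too, at 6.51 to 36.1 FPKM in the 7 and 6.50 to 29.8 FPKM in the 11. Summed fibroblast surface markers overlapped as well, at 766 to 1244 FPKM in the 7 and 402 to 960 FPKM in the 11. The 7 were not alike in every single gene. Thy1 was at 0.2803 to 0.4666 CPM in the 3 libraries under 10% of the Y-linked level. In the 4 between 10% and 50% Thy1 was at 15.97 to 19.31 CPM, and in the 11 at 8.894 to 17.2 CPM. Saa3 was at 9.05 to 31.75 CPM in the 3, 201.4 to 523.3 in the 4 and 99.64 to 490.3 in the 11. The ribosomal RNA part of the mitochondrial counts was 0.721% to 1.23% in the 7 and 0.854% to 1.58% in the 11. In RNA from whole cultures, fewer cells of a type and less RNA per cell cannot be told apart, and the part of any of these in the mitochondrial share was not tested.

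**Figure D5:**
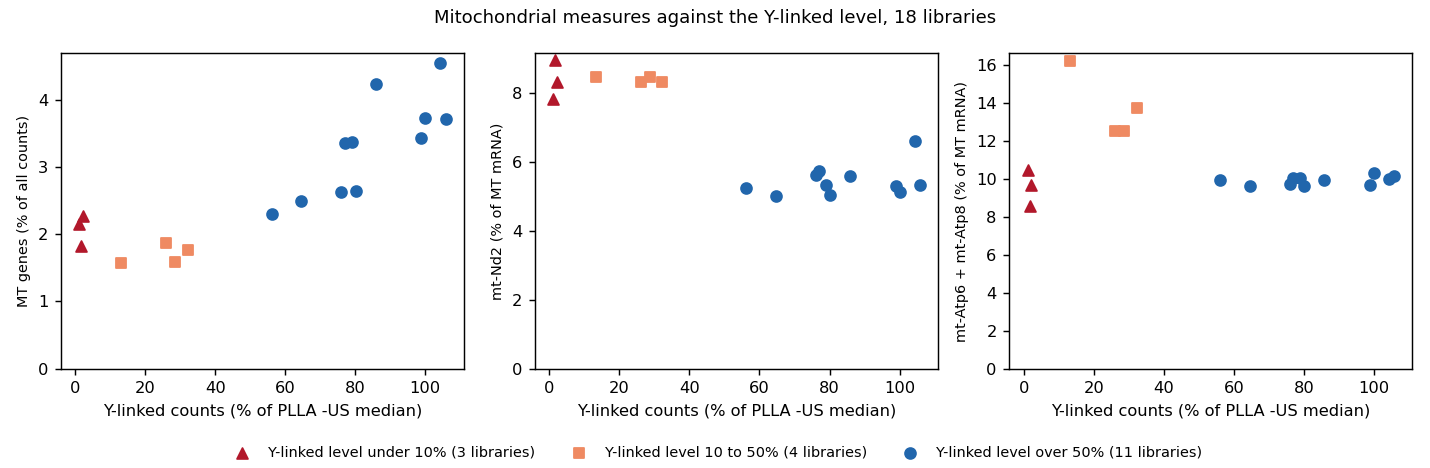
Mitochondrial share of all counts (left), mt-Nd2 share of mitochondrial protein-coding counts (middle) and the summed share of mt-Atp6 and mt-Atp8 (right), all in percent on the y axes, against the Y-linked level of each library (x axis, percent of the PLLA -US median), with 1 point for each of the 18 libraries. The 7 libraries under 50% lie at 1.57% to 2.27% on the left and at 7.83% to 8.97% in the middle, and the 4 between 10% and 50% lie at 12.5% to 16.2% on the right.

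Across the 18 libraries most protein-coding mitochondrial genes varied together and mt-Nd3 did not. Pearson correlations of their log2 CPM values ran between 0.50 and 0.98 over the 66 pairs without mt-Nd3 (median 0.84), and between -0.29 and 0.24 over the 12 pairs with mt-Nd3. The points share libraries and depth, and these correlations are descriptions with no p. The nuclear genes whose levels were most like the mitochondrial share over the 18 libraries were Gm28661, the copy of mt-Co2 (r = 0.97), Lig4 (0.96), Ubxn4 (0.96), Fgf7 (0.96) and Gm29216, the copy of mt-Co1 (0.96). Those least like it were Hyal2 (r = -0.95), Ube2z (-0.94), Tbc1d20 (-0.94), Tmem198b (-0.93) and Nelfb (-0.93). Of the first 5, 2 are copies that share sequence with mitochondrial genes.

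With all 18 libraries, the nuclear genes that serve the mitochondrial genome showed 0 calls in every comparison. With ultrasound on the collagen membrane, nuclear subunits of complexes I, III, IV and V had a median log2 fold change of -0.02, with 29 of 71 higher and 42 lower, beside a median of -0.60 for the 13 subunits made in mitochondria. Mitochondrial ribosomal proteins had -0.02 (35 of 77 higher, 42 lower), and factors of mitochondrial RNA processing and stability -0.11 (7 of 28 higher, 21 lower), where all genes tested had -0.03. On PLLA the nuclear subunits had a median of 0.15 with ultrasound (60 of 71 higher, 11 lower) and the mitochondrial ribosomal proteins 0.17 (65 of 77 higher, 12 lower), beside -0.11 for the 13 and 49.5% of all genes below 0. Genes of mitochondrial transcription and replication had -0.11 on the collagen membrane (5 of 15 higher, 10 lower) and -0.18 on PLLA (6 higher, 9 lower).

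For zinc oxide the nuclear subunits lay almost entirely on one side of 0. Without ultrasound 71 of 71 were higher (median 0.34), beside a median of -0.21 for the 13 mitochondrial subunits, and 51.1% of all genes were below 0. With ultrasound 69 of 71 were higher and 2 lower (median 0.22), beside -0.03 for the 13, and 53.8% of all genes were below 0. None of the 71 was called in either, and both the zinc oxide and the ultrasound comparisons on PLLA use the PLLA libraries. Without all 7 libraries under 50% of the Y-linked level the medians of the nuclear subunits were 0.34 and 0.14.

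The nuclear values on the collagen membrane rested on the libraries kept. Without the 3 libraries under 10% of the Y-linked level, ultrasound there gave the nuclear subunits a median of 0.65, beside -1.46 for the 13. The mitochondrial ribosomal proteins had 0.42. The fit that averages ultrasound over the membranes without those libraries called 8 of the 71, all higher, beside the 6.17% of all genes called higher in it. For collagen without ultrasound, leaving out the 7 libraries under 50% gave the nuclear subunits a median of -0.65 and the 13 a median of 0.75. Each of these fits has PLLA/ZnO@Col -US replicate 2 as the only library of its group, and they are not separate observations. The medians of all genes in these fits are not given here, so the nuclear medians cannot be set against them.

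Single nuclear regulators were not called with all 18 libraries. Tfam, which packages and helps transcribe the mitochondrial genome, averaged 4.54 ± 0.341 FPKM in PLLA/ZnO@Col +US and 7.44 ± 2.37 FPKM in PLLA/ZnO@Col -US (SD, n = 3 each), a log2 fold change of -0.70 (SE 0.37, adjusted p = 0.525 by edgeR). Lrpprc, which stabilises mitochondrial mRNAs, averaged 6.16 ± 1.61 FPKM with ultrasound and 9.78 ± 3.03 FPKM without (-0.65, SE 0.26, adjusted p = 0.525 by edgeR). Polrmt, the mitochondrial RNA polymerase, averaged 11.1 ± 1.07 FPKM with ultrasound and 8.88 ± 1.44 FPKM without (0.32, SE 0.14, adjusted p = 0.525 by edgeR). Bnip3, a mitophagy receptor, had an average ultrasound log2 fold change over the membranes of -0.57 (SE 0.14, adjusted p = 0.363 by edgeR), and its relative Bnip3l had -0.46 (SE 0.14, adjusted p = 0.363 by edgeR). The Bnip3 values differed in size between membranes, at -1.17 on PLLA/ZnO (SE 0.24, adjusted p = 0.937 by edgeR), -0.22 on PLLA (SE 0.23, adjusted p = 0.978 by edgeR) and -0.31 on PLLA/ZnO@Col (SE 0.23, adjusted p = 0.544 by edgeR), and the difference between PLLA/ZnO and PLLA was not called (-0.95, SE 0.33, adjusted p = 1 by edgeR). Without the 3 libraries under 10% of the Y-linked level the ultrasound average was -0.68 for Bnip3, -0.59 for Bnip3l and -0.54 for Lrpprc. For Polrmt it was 0.29 and for Tfam -0.63. In that fit PLLA/ZnO@Col -US replicate 2 is the only library of its group, so effect sizes alone are given for these regulators. Every library under 50% of the Y-linked level that the fit keeps is a +US library. Its values therefore do not tell ultrasound apart from the Y-linked level. On PLLA, PLLA/ZnO and PLLA/ZnO@Col in turn, Lrpprc had -0.16, -0.19 and -1.26 and Tfam -0.29, -0.42 and -1.18. Polrmt had 0.13, 0.15 and 0.59, Bnip3 -0.21, -1.15 and -0.67, and Bnip3l -0.29, -0.77 and -0.71. Without all 7 libraries under 50%, Lrpprc was at -0.03 on PLLA and 0.02 on PLLA/ZnO, and Tfam at -0.04 and -0.06. Bnip3 was then at -0.21 and -1.12, Bnip3l at -0.14 and -0.54 and Polrmt at 0.13 and 0.14. Ppargc1a, a coactivator that drives mitochondrial biogenesis in other tissues, reached at most 0.0882 FPKM and was not tested.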

How the data were processed

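The tools used were cutadapt 1.9 and FastQC and the build GRCm38, per the submitters' processing notes. Aligner, counter and strand setting: not given in the sources used here. Whole-number counts per gene, not normalized, and FPKM stand side by side in the single table that the authors deposited, per the file headers. Counts were scaled by TMM and tested with edgeR 4.0.16 (quasi-likelihood F-test, 2-sided, all 18 libraries, a mean per group, 12 residual degrees of freedom, Benjamini-Hochberg) in R 4.3.3; SE is the fold change divided by the root of F. Shares were tested by exact permutation. No pair of replicates agreed within sampling noise (lowest chi-square per degree of freedom 13.1). Each library was grouped by its title. Alternatives were DESeq2 1.42.0, limma 3.58.1 on log2(FPKM + 1) and log2(FPKM + 0.1), DESeq2 size factors, no filter, library sizes without mitochondrial genes, a replicate block, only the compared libraries, each library left out, and the Y-linked exclusions. The scripts were tested on simulated data. The members and gene lists were chosen with earlier results of these data known. Named were all 13 protein-coding and 2 ribosomal RNA genes, the 3 highest and lowest transfer RNA genes, the 5 most and least alike nuclear genes and 5 regulators with Bnip3l, a list member; some nuclear list members are left out for length, and the genes named for an unadjusted p were chosen after their values were seen. Sequences are from the GRCm38 genome and GENCODE M21.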

Additional observations from a re-analysis of the deposited data

How the results depend on the processing

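No mitochondrial gene was called under DESeq2, limma, other size factors, no filter, library sizes without mitochondrial genes, only the compared libraries or a replicate block, in any of the 7 comparisons. Counts of all genes called were above 0 under DESeq2 (5 and 3 for ultrasound on PLLA/ZnO and PLLA/ZnO@Col, 2 and 1 for zinc oxide with and without ultrasound, 47 and 407 for collagen with and without) and, at 1, for collagen without ultrasound with limma on log2(FPKM + 0.1). Without the libraries under 10% of the Y-linked level they were 111 for ultrasound on PLLA/ZnO@Col and 166 for collagen without ultrasound, and without those under 50% the count for collagen without ultrasound was 1932. The mitochondrial genes called were 5, 2 and 6, and the medians of the 13 protein-coding genes were -1.46, 0.74 and 0.75. The ultrasound effect averaged over membranes then had 1044 genes called, 4 of them mitochondrial. Its difference between membranes had 13 called for PLLA/ZnO@Col minus PLLA/ZnO (1 mitochondrial, median -1.36) and 13 for PLLA/ZnO@Col minus PLLA (median -1.27), all without the libraries under 10%. With 1 library left out, all genes called ranged from 0 to 1 for ultrasound on PLLA/ZnO and for zinc oxide with ultrasound (1 each without PLLA/ZnO +US replicate 2), from 0 to 38 for ultrasound on PLLA/ZnO@Col and from 0 to 1039 for collagen without ultrasound, where mitochondrial calls ranged from 0 to 1. The median for ultrasound on PLLA/ZnO@Col then ranged from -0.75 to -0.14, with mt-Atp8 between -0.54 and 0.31 and mt-Atp6 between -0.59 and 0.082.

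The mitochondrial share turned sign as a share of summed FPKM for ultrasound on PLLA/ZnO (0.18 points) and collagen without ultrasound (0.69). It also turned without libraries under 10% of the Y-linked level for collagen without ultrasound (1.69) and over both ultrasound states (0.30), and without those under 50% for ultrasound on PLLA (0.18), on PLLA/ZnO (0.50) and collagen without ultrasound (1.69). With 1 library left out the difference ranged from -0.99 to 0.18 points for ultrasound on PLLA, from -0.40 to 0.50 on PLLA/ZnO, from -0.67 to 0.51 for zinc oxide with ultrasound, from -0.53 to 0.058 for zinc oxide over both states and from -0.86 to 0.49 for collagen without ultrasound. The ATP synthase difference ranged from 1.11 to 2.18 points. These turns come with fewer libraries; for the FPKM share the cause was not tested.

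Replicate numbers are not stated to mark shared cultures. Same-numbered libraries had correlations of deviations between -0.51 and 0.73 (median 0.06, 45 pairs), and 11 of 18 libraries correlated best with their own number. With the replicate block 0 genes were called in each comparison. Depth did not limit the protein-coding genes, and it limited transfer RNA genes such as mt-Tf.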
